A study of Mus musculus with 23 samples.

Results

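The matrix metalloproteinases *Mmp2*, *Mmp14*, *Mmp3* and *Mmp23*, the tissue inhibitors of metalloproteinases *Timp1*, *Timp2* and *Timp3*, and the plasminogen activators *Plau* and *Plat* were taken by gene symbol from count files that list 18512 symbols. All 9 genes were found. Enough counts for a test were present for 7 of the 9, as for 12195 of all symbols. *Mmp3* and *Timp1* were too low. Across the 23 mice the 9 genes held from 83 counts (*Timp1*) to 5678 counts (*Timp2*).

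The study asked which transcripts still differ from the uninjured state once the pancreas has recovered from acute pancreatitis by histology. C57BL/6 mice of both sexes, 6 to 8 weeks old and weighing 20 to 25 g, either were not injured (baseline, 4 females and 4 males) or received caerulein, a cholecystokinin analogue that overstimulates acinar cells, at 50 µg/kg in 8 hourly injections on each of 2 days. Injured mice were taken at day 7 (4 females, 4 males) or at day 14 (3 females, 4 males), and no vehicle injection of the baseline mice is described in the sources used here. RNA was from the head of the pancreas, 1 mouse per library, so every value is of a mixed tissue, in which a larger number of cells of a type and more RNA per cell cannot be told apart.

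Matrix metalloproteinases are zinc-dependent enzymes that cut collagens and other proteins of the extracellular matrix. They are made as inactive proenzymes, and the membrane-bound enzyme encoded by *Mmp14* activates the gelatinase encoded by *Mmp2* in a complex that contains TIMP-2. Plasmin, made from plasminogen by urokinase (*Plau*) or tissue plasminogen activator (*Plat*), degrades fibrin and matrix proteins and can activate some metalloproteinases. In the pancreas these genes are known mainly from fibroblasts, stellate cells and macrophages.

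A feature common to the 4 proteases is the stretch that binds the catalytic zinc ion. It is shown because all 4 carry it although their levels differed widely, and it does not by itself define the family. The sequences below are the coding strand of the GENCODE vM21 transcripts, 33 bases each, with the 3 histidine codons that hold the zinc in capitals.
Mmp2: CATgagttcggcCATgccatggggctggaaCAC
Mmp14: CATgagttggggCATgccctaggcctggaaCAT
Mmp3: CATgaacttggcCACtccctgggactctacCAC
Mmp23: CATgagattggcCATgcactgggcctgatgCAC
The stretch began at codon 403 of *Mmp2*, 239 of *Mmp14*, 220 of *Mmp3* and 212 of *Mmp23*. *Mmp2* and *Mmp14* shared 27 of the 33 bases, the most of any pair, and *Mmp14* and *Mmp3* shared 21, the fewest.

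On GRCm38 (mm10), in GENCODE vM21, *Mmp2* (ENSMUSG00000031740.8) lies at chr8:92827291-92853420 on the plus strand and *Mmp14* (ENSMUSG00000000957.11) at chr14:54431612-54445364, also on the plus strand. *Mmp3* is at chr9:7445822-7455975 (plus) and *Mmp23* at chr4:155650655-155653384 (minus). *Timp1* is at chrX:20870166-20874735 (plus), *Timp2* at chr11:118301069-118355740 (minus) and *Timp3* at chr10:86300372-86349506 (plus). *Plau* is at chr14:20836660-20843385 (plus) and *Plat* at chr8:22757727-22782844 (plus). *Timp1* overlaps *Syn1* and *Timp3* overlaps *Syn3*, each on the opposite strand, and *Timp2* overlaps *Cep295nl* on the same strand. The library kit kept the strand, but the strand setting of the counting is not given in the sources used here, so reads of these pairs may not have been separated.

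The RefSeq promoter set for GRCm38.p6 (the bases around each gene's start) held *Mmp14*, *Mmp3*, *Mmp23*, *Timp1*, *Timp2* and *Timp3*. Both strands were searched for an AP-1 motif (TGANTCA), a GC box (GGGCGG) and a TATA box (TATAAA), and no match overlapped another. They occurred in 7.81%, 35.7% and 13.6% of all 32851 promoters of that length. Of these 6 genes, the AP-1 and TATA motifs were found in *Mmp3* alone, and the GC box in the other 5. For *Mmp23* the GC box was in the promoter entry at chr4:155653241-155653540 but not in its other entry, at chr4:155653335-155653634. The *Mmp3* and *Mmp14* promoters are shown because they belong to proteases of one family with none of these 3 motifs in common. Capitals mark the AP-1 match and 1 of 2 adjoining GC boxes. The whole stretches shown are chr9:7445764-7445794 and chr14:54431573-54431602, both on the plus strand.
Mmp3: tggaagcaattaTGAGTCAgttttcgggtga
Mmp14: gcattggggcggGGGCGGaggagaggctgt
A match is a run of letters in this window and was not tested for binding.

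Total counts per mouse were between 7059890 and 9567446, and 3 counts, taken as the floor of detection, corresponded to 0.314 to 0.425 CPM, which are counts per 1000000 counts. This floor covers counting error only. The 20 most abundant genes, mostly acinar enzymes, held a mean of 69.4% of the counts at baseline, 60.3% at day 7 and 65.0% at day 14. Levels are therefore CPM scaled with TMM factors, which ranged from 0.77 to 1.40. Acinar markers were present in every library. Counts of lymphocyte markers stood apart in 4 mice, 1 at baseline (mouse 5), 2 at day 7 (mice 10 and 15) and 1 at day 14 (mouse 21), with a summed 53.9 to 98.6 CPM against at most 16.5 CPM in the others. Mouse 19 at day 14 held 3421 counts of *Alb*, the albumin gene of liver, against 5 to 230 in the other day 14 mice.

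To ask whether the protease system still differed at day 7 after injury, day 7 mice were compared with baseline mice. The metalloproteinases *Mmp2* and *Mmp14* were expressed at 2.23 and 2.10 times their baseline level, and no day 7 mouse was as low as any baseline mouse. The share of all genes whose groups separate in this way is not given, so separation here and below is a description only. *Mmp23* and both plasminogen activators were also up-regulated, whereas no inhibitor with enough counts reached the fold threshold. In all, 5 of the 7 tested genes were differentially expressed genes (DEGs, which had to reach 1.5-fold and an adjusted p no higher than 0.05), all of them higher. Of all genes tested, 5.13% were DEGs, and 3.82% were DEGs that were higher. The median log2 fold change was 0.80 for the 7 genes and 0.02 for all genes.

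*Mmp2*, the gelatinase that cuts denatured collagen and basement membrane collagen, had 5.80, 8.52 and 12.3 CPM as the lowest, median and highest baseline value and 15.1, 19.8 and 24.2 CPM at day 7. The groups did not overlap. The log2 fold change was 1.16 (SE 0.129, edgeR adjusted p = 6.91e-07), which is 2.23-fold. *Mmp14*, the membrane-type collagenase, ran from 3.71 through a median of 5.56 to 6.33 CPM at baseline and from 7.79 through 11.1 to 13.6 CPM at day 7. These groups did not overlap either, and the log2 fold change was 1.07 (SE 0.137, adjusted p = 4.08e-06). The shares of *Mmp2* and *Mmp14* relative to one another moved little, with a mean log2 ratio per length of 1.57 (SD 0.295, n = 8) at baseline and 1.69 (SD 0.233, n = 8) at day 7.

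*Mmp23*, a small membrane-anchored member of the family without the usual hemopexin domain, was near the lower end of what could be tested, with 3 to 26 counts at baseline and 13 to 52 at day 7. In CPM it was 0.52, 1.14 and 3.21 (lowest, median, highest) at baseline and 1.45, 2.45 and 3.89 at day 7. The ranges overlapped, since baseline mouse 4 exceeded 5 of the 8 day 7 mice. The log2 fold change was 0.91 (SE 0.291, adjusted p = 0.0275). This call did not hold when any 1 of 7 mice (1, 2, 7 or 8 at baseline, or 10, 14 or 15 at day 7) was left out, with adjusted p-values of 0.0544 to 0.064, nor without the 4 mice rich in lymphocyte markers (log2 fold change 0.83, adjusted p = 0.0781).

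*Mmp3*, stromelysin-1, had 0 to 4 counts per mouse at baseline and 3 to 17 at day 7. Summed over mice this was 17 and 54 counts, a ratio of 2.08 after scaling by library size, with an exact 95% interval of 1.19 to 3.83 that covers counting error only. In an edgeR fit of all symbols with at least 1 count, its log2 fold change was 1.07 (adjusted p = 0.204). The highest day 7 value, 1.58 CPM in mouse 15, was far above the others, so the mean of this group rests partly on 1 mouse.

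**Figure D1:**
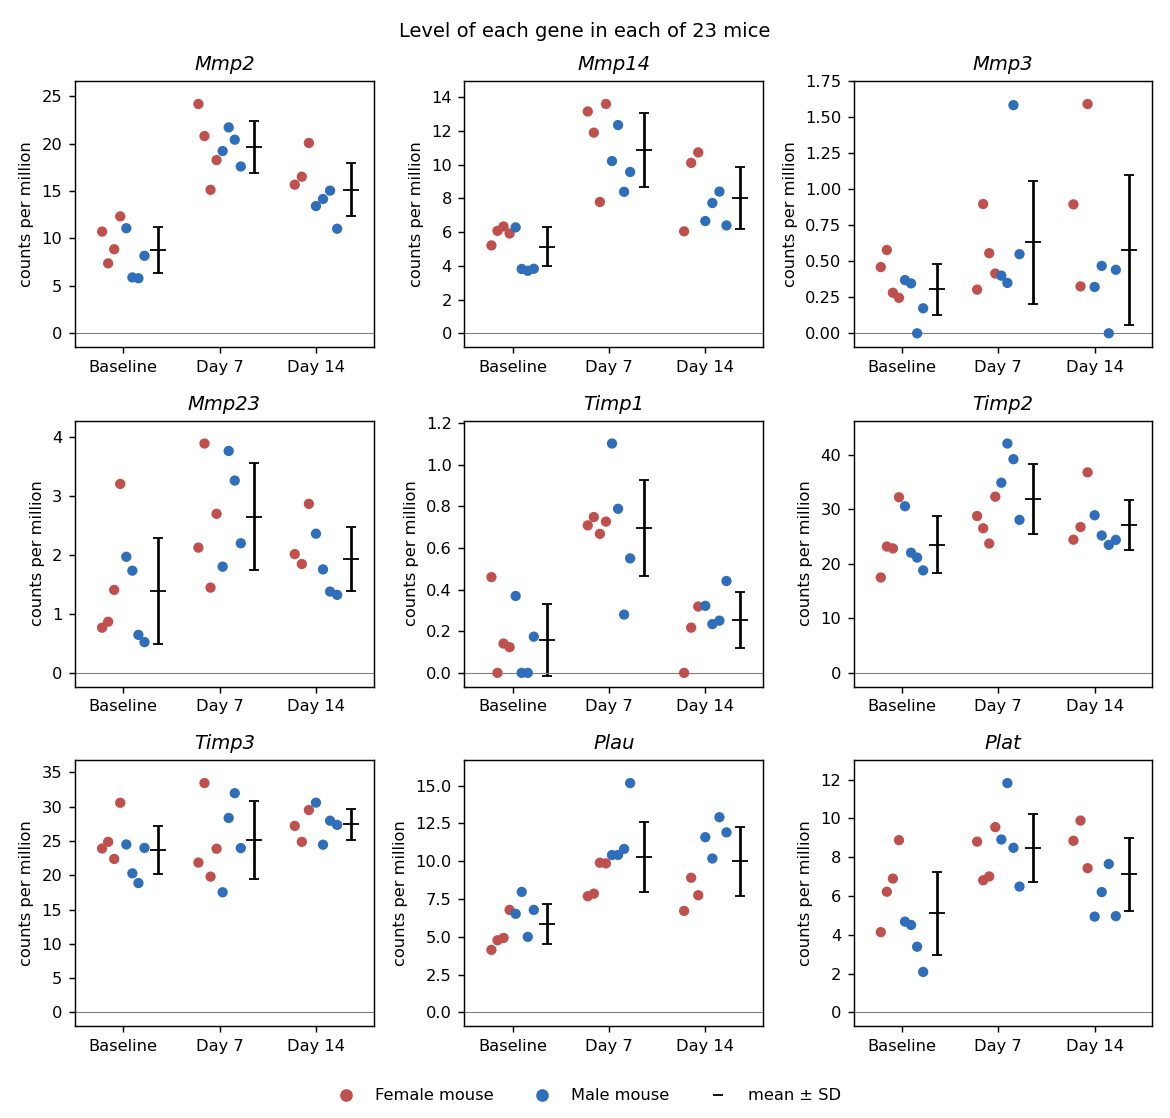
Level of each of the 9 genes (vertical axes, CPM scaled with TMM factors) in each of 23 mice at baseline (n = 8), day 7 (n = 8) and day 14 (n = 7); points are mice coloured by sex, and the bar beside each group is the mean ± SD. *Mmp2* and *Mmp14* at day 7 lie above every baseline mouse, *Timp3* has a mean of 23.7, 25.1 and 27.4 CPM in the 3 groups, and *Mmp3* and *Timp1* lie near the counting floor.

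Among the inhibitors, *Timp2*, which inhibits active metalloproteinases and also takes part in the activation of the *Mmp2* product, had 17.5, 22.4 and 32.2 CPM at baseline and 23.7, 30.5 and 42.0 CPM at day 7. The ranges overlapped, with 4 of 8 day 7 mice above every baseline mouse. Its log2 fold change of 0.43 (SE 0.135) passed the adjusted p threshold (adjusted p = 0.0284), as did 18.6% of all genes, but at 1.35-fold it was not a DEG. Leaving out any 1 of 7 mice raised the adjusted p above the threshold, to between 0.0516 and 0.0704. *Timp3*, an inhibitor bound to the matrix that also acts on ADAM proteases, ranged from 18.9 to 30.6 CPM at baseline and from 17.5 to 33.4 CPM at day 7, and the baseline range lay within that of day 7. The log2 fold change was 0.09 (SE 0.114, adjusted p = 0.634), and the 95% interval of -0.14 to 0.31 contains no change as large as 1.5-fold. Without the 4 mice rich in lymphocyte markers it was -0.068 (adjusted p = 0.711), so no direction can be given.

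*Timp1*, the inhibitor known as the most inducible of the family, was too low for the main test. It had 9 counts in all 8 baseline mice together, with 0 counts in 3 of them, and 58 counts in the 8 day 7 mice. Per mouse the counts were 0 to 3 at baseline and 3 to 11 at day 7. In CPM, 7 of 8 day 7 mice were above every baseline mouse. The ratio of the summed counts, scaled by library size, was 4.23, with an exact 95% counting interval of 2.08 to 9.70. In the fit without a filter *Timp1* had a log2 fold change of 2.01 and an adjusted p of 0.0105 (edgeR), and DESeq2 gave 2.08 and 0.00653. The size of its change is uncertain at this depth, since 8 of 8 baseline mice had at most 3 counts.

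*Plau*, the gene of urokinase, had 4.14, 5.76 and 7.97 CPM (lowest, median and highest) at baseline and 7.69, 10.2 and 15.2 CPM at day 7. Of the 8 day 7 mice, 6 were above every baseline mouse. The log2 fold change was 0.80 (SE 0.116, adjusted p = 2.65e-05), or 1.74-fold. *Plat*, the gene of tissue plasminogen activator, went from 2.09, 4.59 and 8.88 CPM to 6.49, 8.64 and 11.8 CPM. Its ranges overlapped more, with 3 of 8 day 7 mice above every baseline mouse, and the log2 fold change was 0.76 (SE 0.189, adjusted p = 0.00601).

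Scaling multiplies all counts of a library by 1 factor. It could therefore shift each fold change against baseline but hardly the order of the genes. With counts scaled by library totals alone, the median of all genes moved to a log2 fold change of 0.47 at day 7, and 99.4% of DEGs were then higher, against 74.4% with TMM. Relative to that median, *Mmp2* was at 1.13, *Mmp14* at 1.05, *Mmp23* at 0.89, *Plau* at 0.76 and *Plat* at 0.73. The 2 tested inhibitors, *Timp2* at 0.40 and *Timp3* at 0.08, were below these proteases and activators. This does not hold for *Timp1*, the inhibitor too low for the main test. In the TMM-scaled fit without a filter its log2 fold change was 2.01, above those of all tested members in the main fit.

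**Figure D2:**
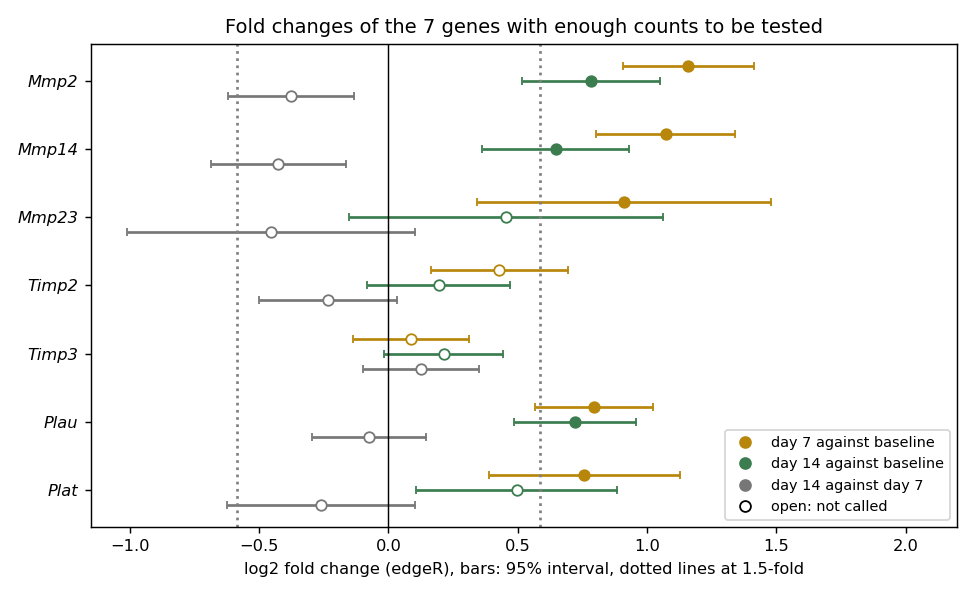
Log2 fold changes of the 7 tested genes (horizontal axis, edgeR, 23 mice in 1 fit) in 3 comparisons, with bars for the 95% interval; filled points are DEGs, open points are not, and dotted lines mark a 1.5-fold change. At day 7 5 points are filled, at day 14 3, and between day 14 and day 7 none; the first 2 comparisons share the baseline mice.

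Day 14 was then compared with baseline, to see which of these genes still differed after another week. *Mmp2*, *Mmp14* and *Plau* remained DEGs, at 1.72-fold, 1.56-fold and 1.65-fold of baseline, and *Mmp23*, *Timp2*, *Timp3* and *Plat* did not pass the test. Thus 3 of the 7 genes were DEGs, all higher, where 0.787% of all genes were DEGs and 0.697% were DEGs that were higher. The median log2 fold change was 0.50 for the 7 genes and 0.01 for all genes. The baseline mice are the same as in the day 7 comparison, so the comparisons are not independent of each other.

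*Mmp2* had 11.03, 15.04 and 20.1 CPM (lowest, median, highest) at day 14, and 6 of 7 mice exceeded every baseline mouse. The log2 fold change was 0.78 (SE 0.136, adjusted p = 0.00165). *Mmp14* had 6.04, 7.72 and 10.7 CPM, again with 6 of 7 mice above every baseline mouse, and a log2 fold change of 0.65 (SE 0.145, adjusted p = 0.0171). Without mouse 19 this was 0.58 (adjusted p = 0.0664) and no longer a DEG. Mouse 19, the library with the counts of *Alb*, had the highest day 14 values of *Mmp2*, *Mmp14*, *Mmp3*, *Mmp23* and *Timp2*.

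*Plau* had 6.72, 10.2 and 12.9 CPM at day 14, with 5 of 7 mice above every baseline mouse and a log2 fold change of 0.72 (SE 0.121, adjusted p = 0.00104). It was the member with the smallest adjusted p at this time point. *Plat* had 4.94, 7.43 and 9.88 CPM, and its log2 fold change of 0.50 (SE 0.198) had an adjusted p of 0.250. *Mmp23*, at 1.32, 1.85 and 2.87 CPM, was within the baseline range in every mouse, with a log2 fold change of 0.46 (SE 0.309, adjusted p = 0.575).

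*Timp2* was at 23.4, 25.2 and 36.7 CPM and *Timp3* at 24.5, 27.3 and 30.6 CPM at day 14. The log2 fold changes were 0.19 (SE 0.141, adjusted p = 0.611) for *Timp2* and 0.21 (SE 0.118, adjusted p = 0.461) for *Timp3*. *Timp1* had 0 to 4 counts per mouse at day 14, 16 in all, and in the fit without a filter its log2 fold change was 0.60 (adjusted p = 0.778). Its ratio of summed counts to baseline was 1.55, with a counting interval of 0.645 to 3.98. *Mmp3* had 0 to 15 counts, 37 in all. Its ratio was 1.90 with an interval of 1.04 to 3.60, which covers counting error only. The 15 counts were in mouse 19, so this ratio rests partly on 1 mouse. For *Mmp3* the edgeR fit without a filter gave an adjusted p of 0.573.

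The difference between day 14 and day 7 was tested in the same fit. None of the 7 genes was a DEG, against 0.377% of all genes. An unadjusted p under 0.05 was found for 2 of the 7, and for 1721 of all 12195 genes tested. DESeq2 also called 0 of them. The lowest adjusted p-values were those of *Mmp14* (log2 fold change -0.43, SE 0.133, adjusted p = 0.105) and *Mmp2* (-0.38, SE 0.124, adjusted p = 0.134). In each of these genes 4 of 7 day 14 mice were below every day 7 mouse. *Plau* differed least, at -0.07 (SE 0.112, adjusted p = 0.805), with a 95% interval of -0.29 to 0.15. *Timp3* was the member with a value above 0, at 0.13 (adjusted p = 0.660), and this sign turned with scaling by library totals, where it was -0.13 (0.12 relative to the median of all genes). With that scaling *Mmp2* (-0.62) and *Mmp14* (-0.67) became DEGs, while the median of all genes moved to -0.25 and the share of DEGs that were higher fell from 54.3% to 2.96%. Relative to that median they were at -0.37 and -0.42.

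Levels were compared between genes per kilobase of exon, as CPM divided by the merged exon length. At baseline the order of the means was *Timp2* (6.03 CPM per kilobase), *Timp3* (2.91), *Mmp2* (2.605), *Plau* (2.48), *Mmp14* (0.863), *Plat* (0.817), *Mmp23* (0.594), *Timp1* (0.178) and *Mmp3* (0.170). *Timp2* was above *Timp3*, and *Plau* above *Mmp14*, in 8 of 8 baseline mice with no overlap of the ranges. All other neighbours in this order overlapped. At day 7 *Mmp2* (5.83) stood second after *Timp2* (8.19), and *Plau* (4.34) came before *Timp3* (3.08). At day 14 the first 4 were again *Timp2* (6.96), *Mmp2* (4.49), *Plau* (4.22) and *Timp3* (3.37), although *Mmp2* exceeded *Plau* in only 3 of 7 mice.

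The make-up of the inhibitor transcripts was described as the share of each *Timp* in the sum of the 3 per length. *Timp2* held 65.9% ± 4.86 (SD, n = 8) at baseline, 67.6% ± 4.55 (n = 8) at day 7 and 65.3% ± 3.06 (n = 7) at day 14. By this measure, which depends on the exon lengths used, it had the largest share at each time point. *Timp3* held 32.2% ± 3.57, 25.7% ± 4.93 and 32.0% ± 2.89. *Timp1* held 1.95% ± 2.28, 6.66% ± 2.26 and 2.68% ± 1.44. No test was made of these shares. Without division by length *Timp2* held 49.4% of the counts at baseline and *Timp3* 50.3%. At day 7 these shares were 55.3% and 43.4%, and at day 14 49.3% and 50.3%. The 2 measures differ because the merged exons of *Timp3* (8144 bases) are longer than those of *Timp2* (3896 bases). The lengths of the transcripts expressed here were not examined.

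The level of protease transcripts relative to inhibitor transcripts was likewise taken within each mouse. The log2 ratio of *Mmp2* to *Timp2* was -1.22 (SD 0.383) at baseline, -0.48 (SD 0.264) at day 7 and -0.64 (SD 0.210) at day 14. *Timp2* was thus above *Mmp2* in every mouse, by a smaller margin on average after injury. The ranges of baseline and day 7 overlapped through baseline mouse 1, which had -0.49 against a range of -0.74 to -0.04 at day 7. The log2 ratio of *Mmp2* to *Timp3* went from -0.19 (SD 0.260, range -0.50 to 0.13) to 0.94 (SD 0.314, range 0.59 to 1.42), with no overlap, and was 0.40 (SD 0.283, range -0.03 to 0.72) at day 14. The ratio of *Mmp14* to *Timp2* was -2.79 (SD 0.308), -2.16 (SD 0.372) and -2.38 (SD 0.265). The ratio of *Plau* to *Plat* was 1.68 (SD 0.739), 1.67 (SD 0.452) and 1.89 (SD 0.660), differences well within its spread. These are ratios of RNA and say nothing of protein or enzyme activity.

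**Figure D3:**
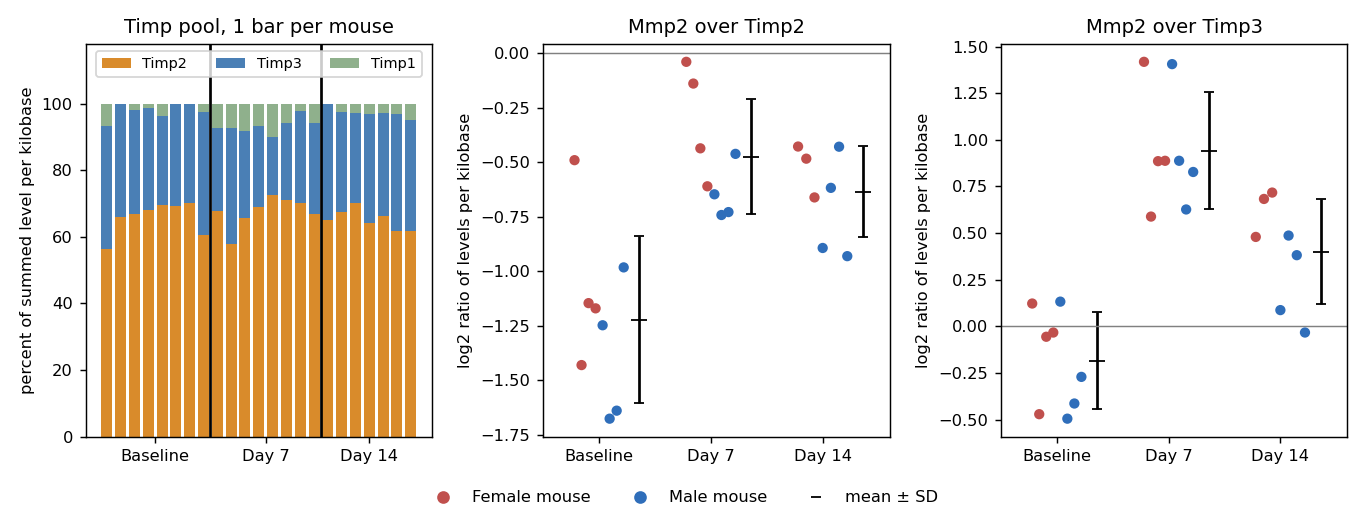
Left, share of *Timp1*, *Timp2* and *Timp3* in their summed level per kilobase (vertical axis, percent), 1 bar per mouse in 3 groups of 8, 8 and 7. Middle and right, log2 ratio of *Mmp2* to *Timp2* and to *Timp3* per kilobase in each mouse, with mean ± SD beside each group; at day 7 the ratio to *Timp3* lies above 0.58 in every mouse and at baseline below 0.14.

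The sexes were compared in all 23 mice, with time point in the model. None of the 7 genes was a DEG by sex, where 0.23% of all genes were, and DESeq2 called 0. An unadjusted p under 0.05 was found for 3 of them, and the share of all genes at that level is not given. *Plau* passed the adjusted p threshold (as did 0.574% of all genes), with a log2 fold change of 0.44 in males against females (SE 0.0953, adjusted p = 0.0236), but its 1.36-fold difference was below the fold threshold. At day 7 the 4 females had 7.69 to 9.90 CPM of *Plau* and the 4 males 10.4 to 15.2 CPM, and at day 14 the 3 females had 6.72 to 8.91 CPM and the 4 males 10.2 to 12.9 CPM. Every injured male was thus above every injured female of its day. At baseline the sexes overlapped, with 4.14 to 6.78 CPM (mean 5.15) in females and 4.998 to 7.97 CPM (mean 6.57) in males. The means at day 7 were 8.83 CPM in females and 11.7 CPM in males. A difference that arises only after injury was not shown, as the interaction test below gives. *Mmp2* (-0.21, adjusted p = 0.572), *Mmp14* (-0.28, adjusted p = 0.397) and *Plat* (-0.35, adjusted p = 0.482) were at the other sign and did not pass the test.

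Whether the change after injury differed between the sexes was tested as an interaction in a fit with 6 groups of sex and time point, over 12933 genes. None of the 8 members in this fit passed (DESeq2 0, and 1 and 0 at an unadjusted p under 0.05 at day 7 and day 14), where 0.00773% of genes passed at day 7 and 0% (no gene) at day 14. For *Plau* the interaction was 0.07 (SE 0.240, edgeR unadjusted p = 0.765) at day 7. At day 14 it was 0.24 (SE 0.251, unadjusted p = 0.344). The member with the lowest p was *Plat* at day 7. In females its log2 fold change was 0.28 (SE 0.222, adjusted p = 0.503) and in males 1.27 (SE 0.238, adjusted p = 0.00153). The difference was 0.98 (SE 0.326), with an unadjusted p of 0.00587 and an adjusted p of 0.665 over all genes (edgeR), so a difference between the sexes was not shown. The baseline males had 2.09 to 4.68 CPM of *Plat* and the baseline females 4.14 to 8.88 CPM, while at day 7 the ranges were 6.49 to 11.8 and 6.81 to 9.55 CPM.

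The comparisons with baseline were also made within each sex, in the same fit of 6 groups over mice of both sexes. At day 7, 3 members were DEGs in females (*Mmp2*, *Mmp14* and *Plau*, where 1.92% of genes were DEGs) and 5 in males (the same 3 with *Timp2* and *Plat*, where 4.15% were). At day 14 no member was a DEG in females (0.193% of genes, with 3 members at an unadjusted p under 0.05) and 1, *Plau*, was in males (0.155%, log2 fold change 0.83, adjusted p = 0.0412). *Mmp2* at day 14 was at 0.82 in females (adjusted p = 0.0593) and 0.77 in males (adjusted p = 0.131), both near the 0.78 of all mice. *Timp3* at day 7 was at -0.041 in females (adjusted p = 0.918) and 0.21 in males (adjusted p = 0.490).

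**Figure D4:**
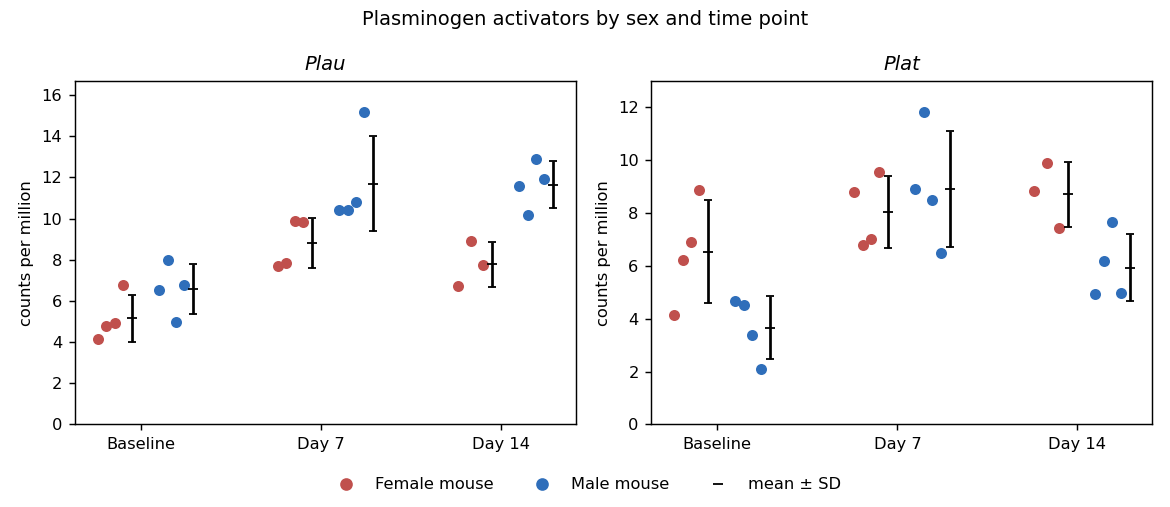
*Plau* (left) and *Plat* (right) in CPM (vertical axes) by time point and sex, with 1 point per mouse and the mean ± SD beside each group (4 mice, but 3 females at day 14). *Plau* in the injured males, 10.2 to 15.2 CPM, lies above that in the injured females of the same day, and *Plat* in baseline males is at 4.68 CPM or less.

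To place the 9 genes among related ones, 5 other lists were examined. As background for the counts at an unadjusted p under 0.05, edgeR gave 3925 of all 12195 genes at day 7 and 1619 at day 14. Between the days it gave 1721. Of 19 other metalloproteinases 15 were listed in the files, and 3 of them, *Mmp9*, *Mmp15* and *Mmp19*, could be tested. *Mmp19*, an enzyme of basement membrane and stroma, was a DEG at day 7, going from 0.70, 1.57 and 2.47 CPM to 1.89, 3.41 and 4.55 CPM (log2 fold change 0.98, SE 0.224, adjusted p = 0.00268). It was not one at day 14 (0.48, adjusted p = 0.385). *Mmp9*, the other gelatinase, had a log2 fold change of -0.27 at day 7 (adjusted p = 0.570), and *Mmp15* -0.22 (adjusted p = 0.241). Their median was -0.22 at day 7 against 0.02 for all genes. Among the untested, *Mmp16* had 0 to 4 counts per baseline mouse, 4 to 13 at day 7 and 0 to 5 at day 14, and *Mmp7* 0 to 1, 0 to 18 and 0 to 4, both chosen here after their values were seen.

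Of 14 other inhibitors and regulators, 12 were tested, and at day 7 5 were up-regulated and 2 down-regulated, with a median log2 fold change of 0.41. The proprotein convertases *Furin* and *Pcsk6*, which cleave proenzymes such as that of *Mmp14*, were the 2 that fell, whereas another convertase of the list, *Pcsk5*, rose by 0.78 (adjusted p = 0.00552). *Furin* had 67.3 to 79.7 CPM in baseline mice and 38.8 to 56.6 CPM at day 7, with no overlap (log2 fold change -0.62, SE 0.0763, adjusted p = 2.09e-06), and *Pcsk6* was at -0.69 (SE 0.134, adjusted p = 0.000805). *Bmp1*, the procollagen C-proteinase, rose by 0.64 (SE 0.131, adjusted p = 0.00116) and its enhancer *Pcolce* by 0.59 (SE 0.131, adjusted p = 0.0022). At day 14 none of the 12 was a DEG (4 at an unadjusted p under 0.05), and the median was 0.23. Against day 7 none was a DEG at day 14, although *Furin* was higher by 0.44 with an adjusted p of 0.00253.

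Of 27 *Adam* and *Adamts* genes 18 were tested, and 4 were up-regulated at day 7, none down-regulated, with a median of 0.26. They were *Adamts2*, the procollagen N-proteinase (0.79, SE 0.163, adjusted p = 0.00132), the aggrecanase *Adamts5* (0.59, SE 0.128, adjusted p = 0.00205), *Adam12* (1.68, SE 0.410, adjusted p = 0.0051) and *Adamts17* (0.78, SE 0.247, adjusted p = 0.0265). *Adam12* had 0 to 2.34 CPM at baseline and 1.25 to 3.74 CPM at day 7. At day 14 none of the 18 was a DEG (5 at an unadjusted p under 0.05), with a median of 0.17.

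Of 17 other genes of the plasminogen system 8 were tested, and 1 was a DEG at day 7. This was *S100a10*, a plasminogen receptor subunit, at 2.96 to 9.72 CPM at baseline and 6.93 to 14.1 CPM at day 7 (log2 fold change 0.76, SE 0.212, adjusted p = 0.0139). The median was 0.19 at day 7 and 0.00 at day 14, when none was a DEG (2 at an unadjusted p under 0.05). The urokinase receptor *Plaur* had 0 to 9 counts per baseline mouse, 2 to 16 at day 7 and 3 to 10 at day 14, too few to test. Plasminogen itself (*Plg*), a liver product, had 0 counts in every baseline and day 7 mouse and 175 and 15 counts in mice 19 and 21 at day 14, which also had 279 and 30 counts of the liver gene *Apoa1*. These genes with few counts were singled out after their values were seen.

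The substrates of these enzymes, 20 genes of collagens, laminins, proteoglycans and related matrix proteins, were all tested. At day 7 13 were up-regulated and none down-regulated, and their median log2 fold change was 0.73. At day 14 3 were up-regulated, with a median of 0.43. *Lama2* (0.75, SE 0.0765, adjusted p = 1.64e-07) and *Col6a1* (0.84, SE 0.0884, adjusted p = 2.89e-07) had the smallest adjusted p-values at day 7. *Col5a2* was a DEG at day 7 (1.102, adjusted p = 4.28e-07) and at day 14 (0.60, adjusted p = 0.00654). *Col6a3* likewise was at 0.83 (adjusted p = 8.52e-07) and 0.61 (adjusted p = 0.000696). Between day 14 and day 7 none of the 20 was a DEG (13 at an unadjusted p under 0.05), with a median of -0.29. The 2 above 0 were *Col4a1* (0.45, adjusted p = 0.00253) and *Col4a2* (0.46, adjusted p = 0.00493), which passed the adjusted p threshold but not the fold threshold. Against baseline they were at 0.10 and -0.004 at day 7, and at 0.55 and 0.46 at day 14.

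**Figure D5:**
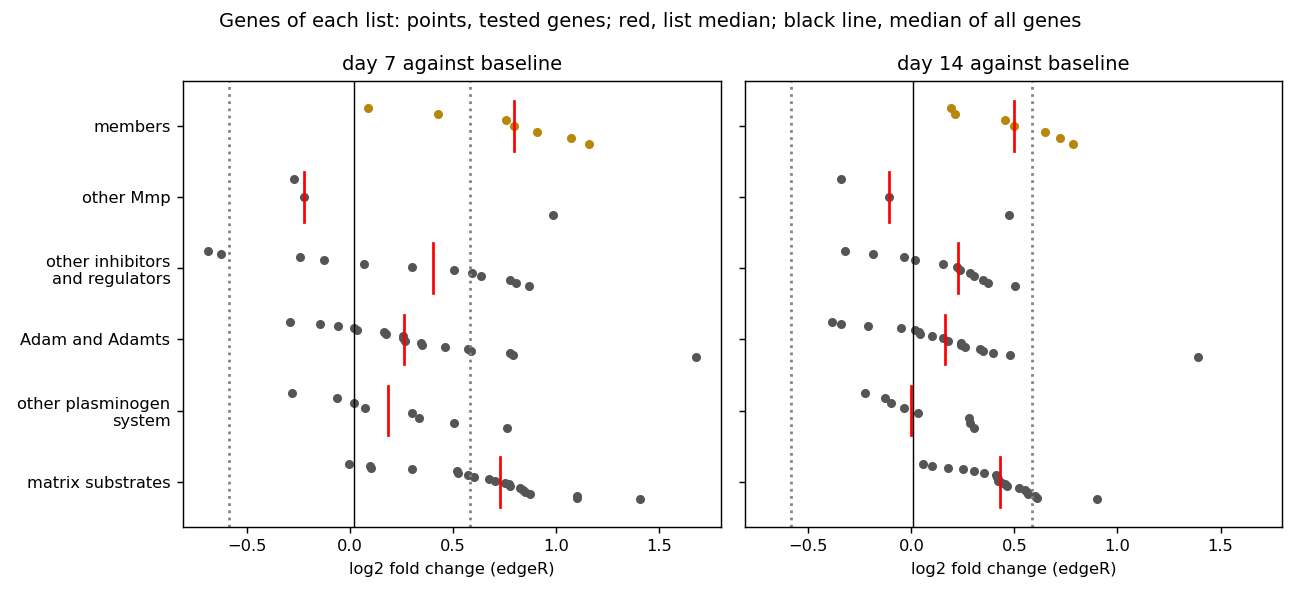
Log2 fold changes (horizontal axes, edgeR) of the tested genes of 6 lists at day 7 (left) and day 14 (right) against baseline; points are genes, red marks the median of a list, the black line the median of all genes and dotted lines a 1.5-fold change. The 7 members have medians of 0.80 and 0.50, near those of the matrix substrates (0.73 and 0.43); the lists were chosen with results known, so their medians are a description.

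Markers of cells that could carry these transcripts were examined at the same time points. Of 10 fibroblast and stellate cell markers, all tested, 7 were up-regulated at day 7 and 2, *Pdgfra* and *Dpt*, at day 14. Of the 7, 4 (*Col1a1*, *Col1a2*, *Col3a1* and *Dcn*) are also among the 13 up-regulated matrix substrates. Their summed level was 346 to 699 CPM in baseline mice, 642 to 1233 CPM at day 7 and 553 to 790 CPM at day 14, and none was at 0 in any group. *Pdgfra*, a growth factor receptor of fibroblasts, had log2 fold changes of 0.88 (adjusted p = 3.05e-07) and 0.63 (adjusted p = 0.00044). The 3 that were not DEGs at day 7 were *Pdgfrb* (0.045, adjusted p = 0.799), *Des* (0.40, adjusted p = 0.660) and *Pdpn* (0.55, adjusted p = 0.132). Of 10 macrophage markers 9 were up-regulated at day 7 and none at day 14 (0 also at an unadjusted p under 0.05), with summed levels of 54.9 to 205, 130 to 306 and 90.2 to 175 CPM. *Mrc1*, for example, was at 0.73 (adjusted p = 0.00259) and 0.34 (adjusted p = 0.386). Acinar markers moved the other way, with 4 of 10 down-regulated at day 7, none at day 14 (7 at an unadjusted p under 0.05), and a summed level of 292080 to 423850, 167720 to 257850 and 269280 to 321640 CPM.

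Of 5 islet markers 3 were up-regulated at day 7 (*Iapp*, *Ins1* and *Ins2*, with 1.11, 1.04 and 0.97), and the median was 0.97. None of the 5 was a DEG at day 14 (3 at an unadjusted p under 0.05), and their summed level was 121 to 509 CPM at baseline, 348 to 1078 CPM at day 7 and 410 to 799 CPM at day 14. Of 7 endothelial markers none was a DEG at day 7 or day 14, with medians of -0.26 and 0.08 and with 3 and 1 at an unadjusted p under 0.05. One of them, *Emcn*, was higher at day 14 than at day 7 (0.64, adjusted p = 0.00487). Of 7 tested smooth muscle and pericyte markers 1, *Notch3*, was down-regulated at day 7 (-0.79, adjusted p = 0.0141). Of 5 ductal markers 1, *Krt7*, was up-regulated at day 7 (0.74, adjusted p = 0.0428). None of 5 tested lymphocyte, 4 mesothelial and 4 adipocyte markers was a DEG in any comparison. No neutrophil or intestinal marker had enough counts to be tested. The summed neutrophil markers had a baseline median of 0.89 CPM, with 16.9 CPM in the highest baseline mouse. At day 7 and day 14 they reached at most 5.69 and 1.61 CPM. The intestinal markers reached at most 1.86 CPM in sum. The part of any of these markers in the changes of the proteases was not tested.

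The genes whose log2 CPM followed each member most closely over the 23 mice were found as a description, and the mice share the 3 time points. For *Mmp2* these were *Igsf10* (Pearson r = 0.960, and 0.897 after the mean of each time point was subtracted) and *Col6a3* (0.950 and 0.791). For *Mmp14* they were *Col6a3* (0.915 and 0.728) and *Col14a1* (0.910 and 0.741), for *Mmp23* *C1s1* (0.892 and 0.827) and *Vim* (0.892 and 0.825), and for *Plat* *Dpt* (0.887 and 0.842) and *S100a6* (0.880 and 0.809). *Timp2* was most like *Fcgr3* (0.902 and 0.863) and *Serping1* (0.898 and 0.844), and *Timp3* like *Cd200* (0.819 and 0.824) and *Hist1h1a* (0.803 and 0.806). *Plau* was most like *Dars* (0.827 and 0.647) and *Rbm7* (0.799 and 0.637).

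Between members, *Mmp2* and *Mmp14* had r = 0.907 over all mice and 0.679 after time point means were subtracted, and *Mmp23* and *Timp2* had 0.826 and 0.736, so the order of these pairs turned with the subtraction. *Plau* had r = 0.553 with *Mmp2* over all mice but -0.33 within time points, and -0.03 once means were subtracted separately for each sex at each time point. With *Plat* its r was 0.349, -0.24 and 0.203 in the same order. *Timp3* had its lowest r with *Plau* (0.203) and its highest with *Mmp23* (0.545).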

How the data were processed

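Gene counts of 23 mice were used, 8 at baseline, 8 at day 7 and 7 at day 14. Mouse 20 was not analysed here. The deposited values are whole counts of fragments per gene symbol. The authors made them from ribosomal RNA-depleted, paired 75-base libraries, trimmed with Trim Galore and cutadapt, aligned to mm10 with STAR 2.5.2a (per the submitters' processing notes) and counted with featureCounts, whose version and annotation are not given in the sources used here. Groups and sexes were read from the sample labels. No pair of libraries of a group agreed within sampling noise (chi-square per gene at least 4.06).

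Counts were scaled with TMM factors and filtered with filterByExpr by time point (12195 genes), and then tested with the quasi-likelihood F test of edgeR 4.0.16 (R 4.3.3), with sex as a covariate and Benjamini-Hochberg adjustment over all genes tested. A DEG had to reach 1.5-fold in either direction with an adjusted p no higher than 0.05. The SE was obtained by dividing the log2 fold change by the root of its F value, so it restates the test, and 95% intervals are normal intervals from it. Interactions of sex and time came from a fit of 6 groups (12933 genes) and were judged by the adjusted p alone. Log2 CPM for correlations had a prior count of 2, and a summed ratio has an exact Clopper-Pearson interval. The fit was tested on simulated data.

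The members and lists were chosen with earlier results of these data known. Beside all 9 members, at most 4 DEGs of each other list were named, by smallest adjusted p, or, where a list had none, at most 2 genes, and the 2 genes most like each tested member. Alternatives were DESeq2 1.42.0, its size factors in edgeR, total count scaling with and without the 20 most abundant genes, no filter except 1 count, at least 10 counts in every mouse, only the compared groups, no covariate, no fold threshold and leaving out each mouse. The comparisons within each sex, taken from the fit of 6 groups, and the fit without the 4 mice rich in lymphocyte markers were added after seeing the data. Python 3.11.15 with numpy 2.4.6, pandas 2.3.3 and matplotlib 3.10.9 was used.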

Additional observations from a re-analysis of the deposited data

Results flagged for a closer look

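In groups of 7 or 8 mice, the highest and lowest CPM of each member were compared with Dixon's 95% critical values, in 27 groups of values, of which chance flags about 1 in 20. The *Mmp3* value of mouse 15 at day 7, 1.58 CPM, lay apart from the other day 7 mice. The *Timp2* value of mouse 19 at day 14, 36.7 CPM, lay above the others of its group, and this is also the mouse with *Alb* and *Plg* counts. The *Plau* value of mouse 16 at day 7, 15.2 CPM, was the highest of all mice.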

How the results depend on the processing

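No paired analysis was possible because each mouse number occurs in 1 group only. With total count scaling, 6 members were DEGs at day 7, 4 at day 14 and 2 between the days, against 5, 3 and 0. *Timp2* was then a DEG at day 7 (0.87, edgeR adjusted p = 0.000163) and *Plat* at day 14 (0.69, adjusted p = 0.0262). The median of all genes moved to 0.47 and 0.22 at these days, and relative to it they were at 0.40 and 0.47. Of all genes, 3695, 448 and 473 were DEGs at day 7, at day 14 and between the days, against 626, 96 and 46. Without the fold threshold these were 2264, 192 and 157, with at least 10 counts in every mouse 348 at day 7 and 30 between the days, and with DESeq2 71 between the days. In the comparisons within each sex, from the fit of 6 groups, 3 members were DEGs in females at day 7 and 0 at day 14. In males 1 was a DEG at day 14. The share of DEGs between the days that were higher was 54.3%, but 46.5% with DESeq2, 46.7% with only these 2 groups and 31.1% when total counts were taken after removing the 20 top genes; at day 7 the last of these gave 85.5% against 74.4%. Leaving out 1 mouse gave 4 to 5 members at day 7, 2 to 3 at day 14 and 0 between the days, and 509 to 815, 64 to 104 and 22 to 57 genes. The count between the days was 23, 22 and 29 without mouse 15, 22 and 24. *Timp3* reversed between the days with total count scaling (-0.13, but 0.12 relative to the median of all genes, which moved by -0.25) and at day 7 without the 4 mice rich in lymphocyte markers (-0.068). With only the 2 groups compared, *Mmp23* at day 7 was not a DEG (0.90, adjusted p = 0.0552). The calls of *Mmp2*, *Mmp14*, *Plau* and *Plat* at day 7 and of *Mmp2* and *Plau* at day 14 were the same in every comparison over both sexes. Apart from the effect of fewer mice or genes tested, the cause of each change was not tested. Genes with fewer than about 10 counts per mouse, such as *Timp1* and *Mmp3*, are limited by depth.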
